A study of Mus musculus with 298 samples.

Results

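Granins and the enzymes that process prohormones were followed through single neurons of the mouse thoracic sympathetic ganglion, a ganglion of the autonomic nervous system that lies beside the spine. The set is 10 genes of the 16892 in the expression table, chosen by name: the granins Chga, Chgb, Scg2, Scg3 and Vgf, the convertase partners Scg5 and Pcsk1n, and the enzymes Pcsk2, Cpe and Pam. All 10 were in the table and all 10 passed the filter on low counts. Granins are acidic secretory proteins that help form the dense-core vesicles in which sympathetic neurons keep noradrenaline and neuropeptides, and several are themselves cut into active peptides. Peptide precursors are cut by convertases such as Pcsk2, trimmed by the carboxypeptidase Cpe and given their terminal amide by Pam. Scg5 is the chaperone that brings Pcsk2 to its active form, and Pcsk1n, the precursor also known as proSAAS, inhibits the related convertase Pcsk1.

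The cells came from mice that carried Wnt1-Cre, which is active in the neural crest, and the R26R-Tomato reporter, so every group shared both alleles and the reporter marks crest-derived cells in general. RNA was counted in 298 single cells, and the labels give an identity to all but 85, which are labelled Unclassified. There were 8 Ach1 and 8 Ach2 cells (together called cholinergic here), 4 Glutamatergic cells and 193 noradrenergic cells, of which 10 were Noradrenergic1, 39 Noradrenergic2, 18 Noradrenergic4, 23 Noradrenergic5 and all others Noradrenergic3. No treatment is named in the labels. The mice were labelled female at postnatal days 11, 16, 20, 30, 31, 33 and 34 and male at postnatal days 29, 30 and 38. The labels name no animals, so all cells of 1 age and sex, called a collection, served as the replicate, which gave 10 collections. Between identities, p-values measure only the spread that remains in counts summed by identity and collection once both are fitted. Where such a sum holds a single cell, this includes the spread between cells. For sex, p-values measure only the spread between collections. For Ach1, 6 of 7 collections held a single cell, and for Glutamatergic 2 of 3. How a cell got its identity is not given in the sources used here. If identities were drawn from these transcriptomes, the tests between identities below are no independent evidence of a difference.

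Cells with an identity, called named cells below, held 7225 to 81589 counts, with a median of 36975. Levels are counts per 10000 counts of the cell, and the level of a collection is the same ratio over its summed cells. In cholinergic cells the cholinergic marker list (Chat, Slc18a3, Slc5a7, Vip) summed to 31.3 to 231 per cell, against 0 to 4.71 in noradrenergic cells, and the list of noradrenergic markers to 10.1 to 82.2, against 61.2 to 221. The list of 14 genes of satellite glia and Schwann cells had a median sum per cell of 29.4 in Ach1 (4.81 to 66.1), 29.6 in Ach2 (5.07 to 49.2) and 27.4 in Glutamatergic cells (15.1 to 50.1), against 5.22 in noradrenergic cells (0.864 to 67.1). Erbb3 was at 0 in Ach1 and Glutamatergic cells, and all other genes of the list had counts in these 3 identities. Of 13 glial genes tested, 2 rose in cholinergic cells (Pmp22 and Sostdc1) and 0 in Glutamatergic cells. A further list (Pnmt, Slc18a1, Penk, Htr3a) is for chromaffin and small intensely fluorescent cells and is called the chromaffin list. It had a median sum of 15.5 in cholinergic cells (2.15 to 26.5) and 1.04 in Glutamatergic cells (0 to 10.8), against 0.585 in noradrenergic cells (0 to 31.6). Pnmt and Penk were at 0 in Ach1, Ach2 and Glutamatergic cells. Slc18a1 was also at 0 in Ach2 and Glutamatergic cells, so there the counts of this list are those of Htr3a alone. In cholinergic cells 1 of 2 chromaffin genes tested and 2 of 6 sensory neuron genes tested were also called higher. The part of these glial, chromaffin and sensory counts in the differences below was not tested. The 5 cells of the collection labelled P16 female held no Xist count and had Ddx3y counts in 5 of 5, against their label. They enter no comparison of the sexes.

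Promoter stretches are shown first. Those of Scg2 and Chgb share the letters of a cAMP response element. With Pcsk2, which lacked the full element, these had the largest falls among the 10 members in cholinergic neurons. Whether the element has a part in any change was not tested. The RefSeq promoters used here (250 bases before to 50 after the gene start, GRCm38.p6) cover 8 of the 10 members, not Vgf and Cpe. Each run is 30 bases, 5′ to 3′ on the gene's strand. Capitals mark the 8-letter element TGACGTCA or, where it is not found, its 5-letter core TGACG, on either strand.
Scg2, chr1:79440076-79440105, minus strand: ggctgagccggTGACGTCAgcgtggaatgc
Chgb, chr2:132781559-132781588, plus strand: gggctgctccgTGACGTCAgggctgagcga
Chga, chr12:102554886-102554915, plus strand: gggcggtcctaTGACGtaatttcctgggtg
Scg3, chr9:75684068-75684097, minus strand: cgctgggtcgcTGACGccatcctcacgcct
Pcsk2, chr2:143546088-143546117, plus strand: tggcgggcgcgCGTCAcccgggctggcgct

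The 8-letter element began 68 bases before the RefSeq start of Scg2 and 72 bases before that of Chgb. It was found in 588 of all 32851 promoters, or 1.79%. The core, which is contained in the 8-letter element, was found on either strand in 6 of the 8 members (these 5 and Scg5) and in 20.8% of all promoters. A match describes letters and not a bound site. GENCODE places the starts of Scg2 and Chgb upstream of the RefSeq starts, so in that annotation both stretches lie inside the gene.

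Levels of Chga, Chgb and Scg2 are given in the order of their means over the 8 identities. Chga, which makes chromogranin A, was 5.72 ± 1.54 in Noradrenergic3 (SD, n = 7 collections) and 3.70 ± 3.48 in Ach2 (n = 4). It was 2.27 ± 1.29 in Noradrenergic2 (n = 7), 2.06 ± 0.930 in Noradrenergic4 (n = 5), 1.19 ± 0.607 in Noradrenergic5 (n = 6), 1.04 ± 0.727 in Noradrenergic1 (n = 5), 0.682 ± 0.649 in Ach1 (n = 7) and 0.620 ± 0.760 in Glutamatergic cells (n = 3). No neighbours in this order were set apart by more than the larger of their SDs. Chgb, which makes chromogranin B, was 5.15 ± 0.992 in Noradrenergic3, 5.10 ± 1.94 in Noradrenergic2 and 4.11 ± 1.47 in Noradrenergic1. It was 2.61 ± 1.86 in Noradrenergic4, 1.82 ± 0.884 in Glutamatergic cells, 1.74 ± 0.759 in Noradrenergic5, 1.16 ± 0.581 in Ach1 and 0.745 ± 0.299 in Ach2. Here too each step was within the larger SD. Scg2, the precursor of the peptide secretoneurin, was 14.8 ± 5.50 in Noradrenergic5, 12.99 ± 5.86 in Glutamatergic cells, 11.2 ± 2.83 in Noradrenergic3, 10.1 ± 1.33 in Noradrenergic2, 7.48 ± 2.10 in Noradrenergic1 and 6.19 ± 3.11 in Noradrenergic4. It was 2.12 ± 2.09 in Ach1 and 1.24 ± 0.454 in Ach2. For Scg2, 2 steps exceeded the larger SD, Noradrenergic2 over Noradrenergic1 and Noradrenergic4 over Ach1.

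For the other 7 members every step between neighbouring identities was within the larger SD. Scg3, a granin that binds Chga and cholesterol-rich vesicle membrane, lay between 1.27 ± 0.757 in Noradrenergic1 and 2.75 ± 1.54 in Glutamatergic cells. Cpe lay between 1.75 ± 1.03 in Ach2 and 3.44 ± 1.95 in Noradrenergic4, and Pcsk1n between 2.48 ± 2.28 in Ach1 and 3.73 ± 3.01 in Noradrenergic4. Pcsk2 was lowest in Ach1 (0.332 ± 0.423), Ach2 (0.593 ± 0.380) and Noradrenergic1 (0.889 ± 0.447), and highest in Noradrenergic2 (2.77 ± 1.28). Pam lay between 1.39 ± 0.380 in Noradrenergic4 and 7.24 ± 9.23 in Ach1. Vgf, whose peptides act in energy balance and neuronal growth, was the sparsest member, with a count in 45.5% of the named cells. Its level was 1.295 ± 1.22 in Glutamatergic cells, 0.735 ± 0.710 in Noradrenergic4, 0.637 ± 0.439 in Ach1 and 0.628 ± 0.544 in Ach2, and at most 0.244 ± 0.233 in the other 4. Counts were not divided by gene length, so levels of different genes are not compared. The median sum of the 10 members per cell was 30.1 in cholinergic cells (19.1 to 48.1) and 36.4 in Glutamatergic cells (26.2 to 57.7), against 39.9 in noradrenergic cells (15.7 to 68.7), with ranges that overlapped.

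**Figure D1:**
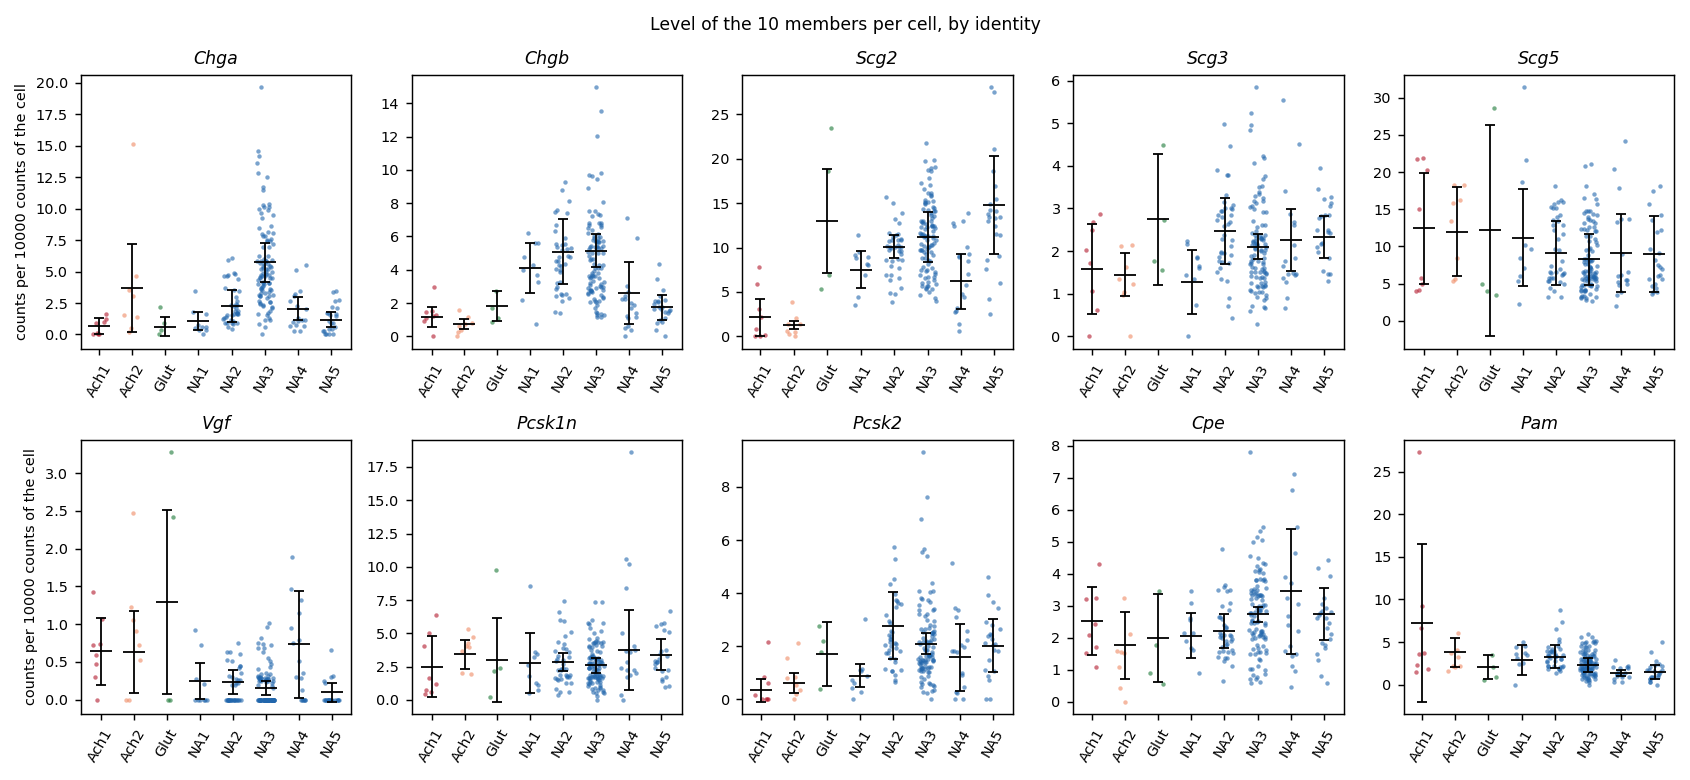
Level of each member (y axis, counts per 10000 counts of the cell, a scale of its own per panel) in each named cell (dots), by identity (x axis). Black bars are the mean ± SD over collections. Chga is highest in Noradrenergic3, Scg2 is low in Ach1 and Ach2, and Scg5 spans a wide range in every identity.

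Cholinergic sympathetic neurons, known for serving sweat glands, were set against the noradrenergic majority. Of the 10 members, 5 fell (Scg2, Chgb, Pcsk2, Scg3, Cpe) and 2 rose (Vgf, Pam), and Chga, Pcsk1n and Scg5 were not called. Across all 11555 genes tested, 2.4% fell and 2.17% rose. Changes are from edgeR's quasi-likelihood test on counts summed by identity and collection, with collection as a block and p-values adjusted by Benjamini-Hochberg over all genes. The median log2 fold change of the members was -0.68, beside -0.20 over all genes. With the other scaling (RLE) these were -0.53 and -0.04, and of the called genes 60.7% were higher in cholinergic cells, in place of 47.5%. The count of 7 called members was 4 without P29 male, without P30 female or without P31 female.

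Scg2 in the 16 cholinergic cells had a lowest level of 0, a median of 1.09 and a highest of 7.76, against 0.613, 10.3 and 28.1 in the 193 noradrenergic cells. Pooled by collection, cholinergic cells lay between 0.279 and 3.14 and noradrenergic cells between 5.93 and 14.4, without overlap. Scg2 fell by 2.80 (log2, SE 0.24, edgeR adjusted p = 1.23e-27) and was lower in 7 of 7 collections that held both classes. Of these collections, P16 female held 1 noradrenergic cell and P30 male 1 cholinergic cell. The highest cholinergic cell, an Ach1 cell of P31 female at 7.76, also held 586 Npy counts, where no other cholinergic cell held more than 65. Its 61 Th counts had their like in 3 other Ach1 cells, at 33, 46 and 57. Whether its capture site held a second cell, or its label is wrong, was not tested. Chgb was 0, 0.988 and 2.94 in cholinergic cells, against 0, 3.801 and 15.0 in noradrenergic cells. Its pooled levels, 0 to 1.77 and 2.57 to 8.79, did not overlap. Chgb fell by 1.73 (SE 0.26, edgeR adjusted p = 6.87e-09), in 7 of 7 collections. Both calls held in all 16 alternative fits, which included leaving out each collection.

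Pcsk2, the convertase among the members, was 0, 0.444 and 2.14 in cholinergic cells, with a count in 11 of 16, against 0, 1.86 and 9.31 in noradrenergic cells, with a count in 187 of 193. The pooled ranges met (0 to 0.974 and 0.884 to 5.27). Pcsk2 fell by 1.84 (SE 0.30, edgeR adjusted p = 7.67e-08), in 7 of 7 collections, and by 0.86 without a call in libraries of at least 2 cells (edgeR adjusted p = 0.206). In that fit Ach1 is 1 library, P31 female, whose 2 cells held 8 and 1 Pcsk2 counts, the 8 in the cell with 586 Npy counts. The strand used in counting is not given in the sources used here, so its reads cannot be told apart from those of the antisense genes Pcsk2os1 and Pcsk2os2. Scg3, Pcsk1n and Pam also overlap other annotated genes, with the same limit. Vgf was 0, 0.717 and 2.47 in cholinergic cells and 0, 0 and 1.88 in noradrenergic cells. A count was found in 13 of 16 cholinergic cells (81.2%, 95% exact interval 54.4 to 95.95), against 82 of 193 noradrenergic cells (42.5%, 35.4 to 49.8), intervals that cover counting error only. Among the noradrenergic identities, Noradrenergic4 stood above Ach1 and Ach2 in mean Vgf level, and 66.7% of its cells held a count. In cholinergic cells Vgf rose by 1.49 (SE 0.38, edgeR adjusted p = 0.00266), in 7 of 7 collections, and pooled levels overlapped (0.303 to 1.05 and 0 to 0.460). The call was lost without P29 male (1.08, edgeR adjusted p = 0.371) and without P31 female (1.26, edgeR adjusted p = 0.0668).

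The other 3 calls were smaller. Scg3 fell by 0.78 (SE 0.23, edgeR adjusted p = 0.0220), with pooled levels of 1.58 ± 0.807 in cholinergic cells (SD, n = 7) and 2.20 ± 0.470 in noradrenergic cells (n = 10), and was lower in 5 of 7 collections. It lost its call without P29 male (-0.73), P30 female (-0.72), P33 female (-0.73) or P38 male (-0.74). Cpe fell by 0.69 (SE 0.22, edgeR adjusted p = 0.0497), at 2.19 ± 1.01 in cholinergic cells and 2.53 ± 0.433 in noradrenergic cells. It was lower in 6 of 7 collections, and lost its call without P20 female (-0.68), P29 male (-0.63), P30 female (-0.75), P31 female (-0.71), P33 female (-0.66) or P38 male (-0.66). Pam rose by 0.67 (SE 0.20, edgeR adjusted p = 0.0185), at 7.01 ± 9.10 in cholinergic cells and 2.62 ± 1.01 in noradrenergic cells. The cholinergic values include a P30 male Ach1 cell at 27.3. Pam was higher in 4 of 7 collections, and lost its call without P16 female (0.55), P30 female (0.52) or P31 female (0.60), with no block (0.79) and in DESeq2 (0.64). Relative to the median of all genes, Scg3 stood at -0.59, Cpe at -0.49 and Pam at 0.87. Under RLE, Scg3 (edgeR adjusted p = 0.0841) and Cpe (edgeR adjusted p = 0.166) were not called, nor was Cpe with no block (-0.63). In libraries of at least 2 cells Scg3 (-0.43), Cpe (-0.88) and Pam (0.47) were not called. For Pcsk1n the value was -0.43 (SE 0.21, edgeR adjusted p = 0.284) and for Scg5 0.05 (SE 0.19, edgeR adjusted p = 0.971).

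**Figure D2:**
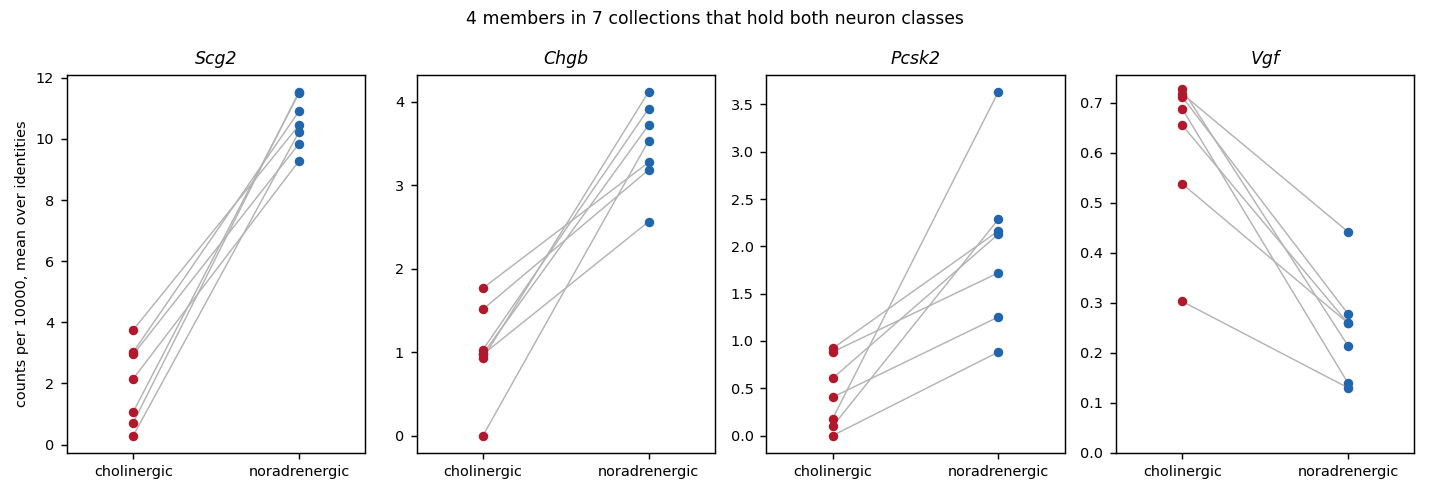
Levels of 4 members (y axis, counts per 10000, mean over the identities of a class) in cholinergic (left) and noradrenergic (right) cells of the 7 collections that held both, a line joining each collection. Scg2, Chgb and Pcsk2 are lower and Vgf higher on the cholinergic side of every line.

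Ach1 and Ach2 differed in 1 called member, whose call rested on 1 collection. The macrophage gene Cx3cr1 was also called, higher in Ach1, with 23 counts in 3 of 8 Ach1 cells and 0 in Ach2, while the other 4 macrophage genes were at 0 in both. Its part in the difference was not tested. Chga was at 0 in 3 of the 8 Ach1 cells, with a median of 0.519 and a highest level of 1.60, against 0.195, 2.32 and 15.1 (lowest, median, highest) in the 8 Ach2 cells. The 2 ranges overlapped, and the 15.1 belonged to a P38 male cell, the next Ach2 cell being at 4.66. Chga had a log2 value of -2.03 in Ach1 over Ach2 (SE 0.43, edgeR adjusted p = 0.00458), in 3 of 4 collections that held both. Of all genes 0.0952% were lower and 0.0433% higher in Ach1, and the members' median was 0.13, beside -0.11 over all genes (0.30 and 0.05 under RLE). The call was lost without P38 male (-1.28, edgeR adjusted p = 0.693), with no block (-2.41), with chip as block (-2.05) and in DESeq2 (-2.05). Over both cholinergic identities Chga had -0.68 (SE 0.26, edgeR adjusted p = 0.118), and it was called lower without P38 male (-1.16, edgeR adjusted p = 0.0101) or without P16 female (-0.85, edgeR adjusted p = 0.0421).

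The 4 Glutamatergic cells were set against the same noradrenergic cells, so this comparison and the cholinergic one share their controls. Chga fell, Vgf rose and 8 members were not called, where 1.01% of all genes fell and 1.62% rose. The members' median log2 fold change was -0.47, beside -0.39 over all genes. Under RLE these were -0.05 and 0.02, and 86.4% of called genes were higher in place of 61.5%. The cells carried the sensory marker list at 87.3 to 215 per cell, against 0 to 1.197 in noradrenergic cells. The P33 female cell also held 130 Th and 555 Npy counts, where the other 3 held at most 3 of either.

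Chga was 0, 0.391, 0.887 and 2.18 in the 4 Glutamatergic cells, within the noradrenergic range of 0 to 19.7. It fell by 1.90 (SE 0.53, edgeR adjusted p = 0.0183), in 3 of 3 collections. The call was lost without P31 female (-1.47, edgeR adjusted p = 0.375) or P33 female (-1.56, edgeR adjusted p = 0.205), and the fall was 3.24 without P29 male. It was also lost under RLE (-1.54), with no block (-1.81), with chip as block (-1.84) and in libraries of at least 2 cells (-0.80), where Glutamatergic is the 1 library of P29 male. Vgf was 0, 0, 2.42 and 3.28, so 2 cells stood above the highest noradrenergic cell (1.88) and 2 held no count. It rose by 2.30 (SE 0.61, edgeR adjusted p = 0.0111), higher in 2 of 3 collections. That call was lost without P29 male (2.52, edgeR adjusted p = 0.147) or P31 female (1.39, edgeR adjusted p = 0.723), and likewise with chip as block (1.49) and in libraries of at least 2 cells (2.04). DESeq2 gave no adjusted p for Vgf here.

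Scg2 was 5.32, 6.91, 18.6 and 23.5 in Glutamatergic cells, around the noradrenergic median of 10.3, and its log2 value was 0.16 (SE 0.30, edgeR adjusted p = 0.891). Whether this differs from the cholinergic fall was not tested. Chgb had -0.999 (SE 0.40, edgeR adjusted p = 0.214) and Scg5 -0.58 (SE 0.32, edgeR adjusted p = 0.477). Scg5 was 28.6 in the P33 female cell with Th and Npy counts, and 3.45, 3.99 and 4.92 in the other 3 cells. Without P33 female, Scg5 was -2.10 and called (edgeR adjusted p = 5.41e-04).

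**Figure D3:**
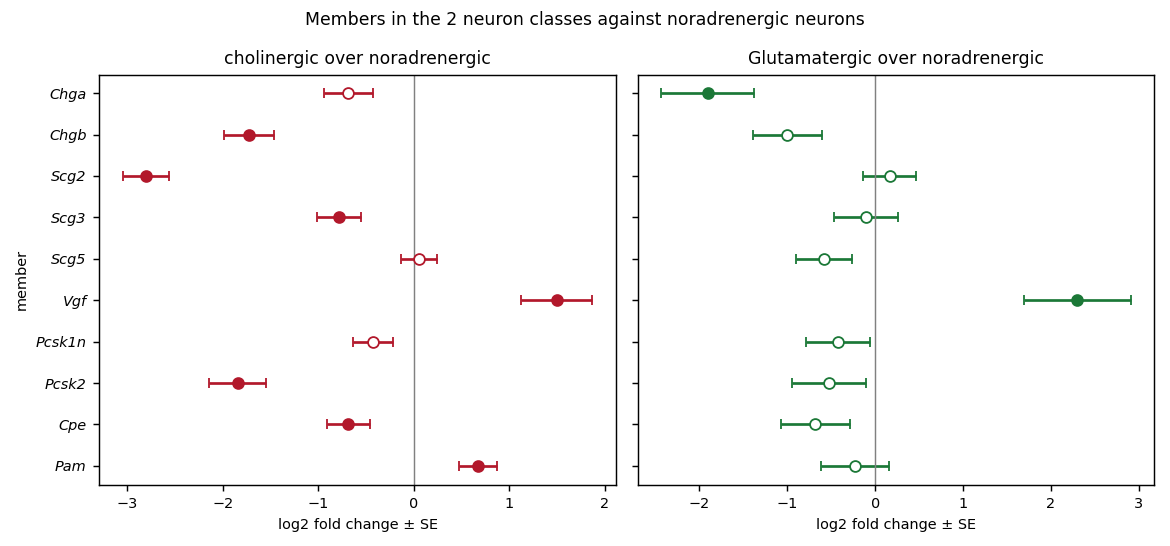
Log2 fold change ± SE of each member (rows) in cholinergic (left) and Glutamatergic (right) over noradrenergic neurons, from edgeR. Filled points have an adjusted p under 0.05. Scg2, Pcsk2 and Chgb lie far below 0 in cholinergic neurons, and Vgf lies above 0 in both classes, which share their noradrenergic controls.

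Among noradrenergic neurons each identity was set against the mean of the other 4, so the 5 comparisons share cells. Noradrenergic3, the largest identity, had high Chga, at 0, 4.85 and 19.7 per cell (lowest, median, highest). By collection its level, against the mean of the other identities present, was 7.85 against 1.75 in P29 male, 7.54 against 2.66 in P38 male, 5.65 against 1.71 in P34 female and 5.47 against 1.93 in P30 female. It was 5.44 against 2.25 in P33 female, 4.61 against 1.23 in P31 female and 3.48 against 0.780 in P11 female. In P34 female the other side was 1 Noradrenergic5 cell. The lowest of these Noradrenergic3 values exceeded the highest of the others. Chga rose by 1.97 (SE 0.18, edgeR adjusted p = 1.01e-22). Markers of other cell types were called here too: 2 of 5 fibroblast genes tested, 2 of 3 smooth muscle and pericyte genes and 1 of 1 endothelial gene were higher, and 1 of 2 chromaffin genes was lower. Per Noradrenergic3 cell the fibroblast list summed to 0 to 98.9 with a median of 0, the smooth muscle list to 0 to 15.3 with a median of 0.179 and the endothelial list to 0 to 9.80 with a median of 0, and the chromaffin list to 0 to 6.48. In the other noradrenergic identities the highest cell was 20.2, 1.29, 0.534 and 31.6 for these lists in the same order. No gene of the first 3 lists was at 0 over all Noradrenergic3 cells. Their part in the rise was not tested. Chgb rose by 0.91 (SE 0.18, edgeR adjusted p = 1.14e-04), also in 7 of 7 collections, though in P11 female only to 4.63 against 4.54. Both calls held in all 16 alternatives. In this comparison 1.46% of all genes rose and 0.277% fell, and the members' median was 0.31, beside 0.16 over all genes (0.19 and 0.05 under RLE, where 71.9% of called genes were higher in place of 84.1%).

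Noradrenergic2 rose in Pam by 0.92 (SE 0.20, edgeR adjusted p = 8.05e-04) and in Chgb by 0.89 (SE 0.20, edgeR adjusted p = 0.00169), where 1.36% of all genes rose and 0.277% fell. Pam had a median of 3.36 per Noradrenergic2 cell (1.303 to 8.76) and was higher in 5 of 5 collections. Chgb had a median of 4.53 (1.37 to 9.25) and was higher in 4 of 5. Without P29 male, where pooled Pam was 6.31, the rise of Pam was 0.66 and not called (edgeR adjusted p = 0.249), and its call was also lost with no block (0.86) and in DESeq2 (0.96). Without P38 male that of Chgb was 0.75 and not called (edgeR adjusted p = 0.123).

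Noradrenergic5 combined low Chgb with high Scg2. Of other markers, 3 of 5 fibroblast genes tested and 1 of 2 chromaffin genes were also called higher. The fibroblast list summed to 0 to 20.2 per Noradrenergic5 cell, with a median of 0.203 and no gene at 0. The chromaffin list summed to 0.385 to 15.6, with a median of 3.86 and with Pnmt and Penk at 0. Their part was not tested. Its Chgb was 0, 1.67 and 4.36 per cell and fell by 1.25 (SE 0.25, edgeR adjusted p = 1.90e-04), in 6 of 6 collections and in all 16 alternatives. Against the mean of the others it was 1.72 against 3.66 in P31 female, 1.69 against 4.93 in P29 male and 3.19 against 5.26 in P11 female. Its Scg2 was 2.46, 13.5 and 28.1 per cell and rose by 0.83 (SE 0.21, edgeR adjusted p = 0.0106), in 5 of 6 collections. Pooled Scg2 was 13.03 to 21.1 in 5 collections and 5.49 in P11 female. The Scg2 call was lost without P29 male (0.79, edgeR adjusted p = 0.124) or P30 female (0.65, edgeR adjusted p = 0.180), and also with no block (0.67), with chip as block (0.64) and in DESeq2 (0.84). Here 0.788% of all genes rose and 0.623% fell. Vgf, with a count in 5 of 23 cells, had -1.44 (SE 0.59, edgeR adjusted p = 0.345).

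Noradrenergic4 rose in Vgf by 1.56 (SE 0.42, edgeR adjusted p = 0.0214), in 5 of 5 collections, with a count in 12 of 18 cells and at most 1.88 per cell. The Vgf call was lost without P11 female (1.45), P30 female (1.21) or P31 female (1.64), with chip as block (1.24) and in libraries of at least 2 cells (1.47). The glial gene Pmp22 also rose there, by 1.03 (SE 0.22, edgeR adjusted p = 6.70e-04), as 1 of 13 glial genes tested. Chgb (-0.84, SE 0.25, edgeR adjusted p = 0.0569) and Scg2 (-0.76, SE 0.24, edgeR adjusted p = 0.0989) were not called. Chgb was called without P11 female (-0.995), P30 male (-0.83) or P34 female (-0.86), and Scg2 without P30 male (-0.75). Of all genes 0.952% rose and 0.303% fell. Noradrenergic1 fell in Pcsk2 by 1.45 (SE 0.38, edgeR adjusted p = 0.0123) and in Chga by 1.396 (SE 0.36, edgeR adjusted p = 0.0130), each in 4 of 4 collections, where 0.528% of all genes fell and 0.865% rose. The members' median there was -0.43, beside -0.15 over all genes (-0.26 and -0.01 under RLE, where Chga was -1.21 and not called). Pcsk2 was 0, 0.808 and 3.02 in its 10 cells, and lost its call without P30 female (-1.28), P31 female (-1.11) or P38 male (-1.47). Chga was 0, 0.615 and 3.45, and lost its call without P31 female (-1.55) or P38 male (-0.89), with no block (-1.54), with chip as block (-1.68) and in DESeq2 (-1.36). The macrophage gene Cx3cr1 was also called higher in Noradrenergic1, with 11 counts in 2 of 10 cells and the other 4 macrophage genes at 0. So was 1 of 2 chromaffin genes, that list summing to 1.33 to 31.6 per cell with Pnmt and Penk at 0. Their part was not tested.

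**Figure D4:**
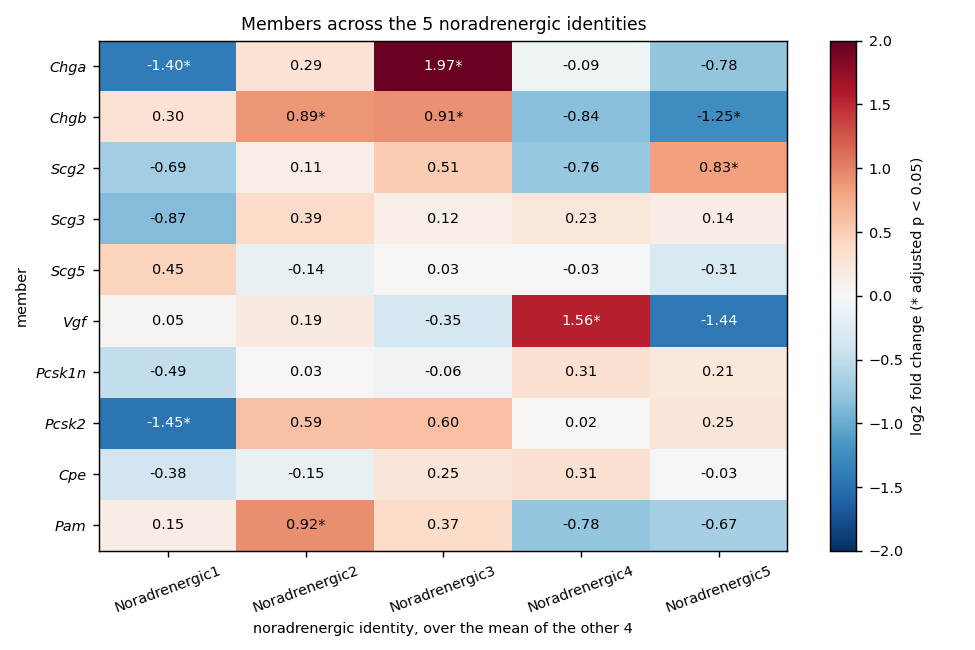
Log2 fold change of each member (rows) in each noradrenergic identity over the mean of the other 4 (columns), from edgeR, with a colour scale that ends at 2 on either side. An asterisk marks an adjusted p under 0.05. Chga in Noradrenergic3 is the largest rise, and Chgb is higher in Noradrenergic2 and Noradrenergic3 and lower in Noradrenergic5.

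Scg5 varied with the collection more than with the identity. On log2(level + 1) over all named cells, the share of the spread that went with collection (adjusted R squared, a description) was 36.6% for Scg5, and the share that went with identity was 0.678%. For Scg2 these shares were 9.37% and 51.9%, for Chga 7.98% and 44.6%, and for Chgb 0.234% and 43.1%. Within Noradrenergic3 alone, collection went with 30.9% of the Scg5 spread. The median Scg5 level per cell was 18.3 in P16 female, 13.3 in P29 male, 14.1 in P33 female and 7.13 in P31 female. In the other 6 collections it was 3.95 to 5.96. A level over 12, a limit chosen after the values were seen, was found in 3 of 3 named cells of P16 female, 17 of 28 of P29 male, 20 of 24 of P33 female and 26 of 88 of P31 female. In the other 6 collections 0 cells were over it.

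Cholinergic cells were few per collection, with 1 in P30 male and 1 in P33 female, so their levels by collection are a description. Pooled Scg5 was 20.4 in cholinergic and 13.9 in noradrenergic cells of P16 female, 15.5 and 12.7 in P29 male, and 20.3 and 14.4 in P33 female. In P31 female it was 15.2 in cholinergic cells, from 2 Ach1 cells at 4.02 and 21.7, and 9.33 in noradrenergic cells. It was 6.14 and 5.46 in P30 female, 5.74 and 7.07 in P30 male, and 5.34 and 6.03 in P38 male. The 2 Glutamatergic cells of P29 male, at 3.99 and 4.92, lay low in a high collection. High and low collections occurred in both sexes and under both numbers that open the chip names, 1772099 and 1772116. What that number stands for is not given in the sources used here. The P33 female chip under 1772099 had a median of 13.9, and its 2 chips under 1772116 had 18.01 and 11.5. Age, animal and day of collection cannot be told apart here.

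**Figure D5:**
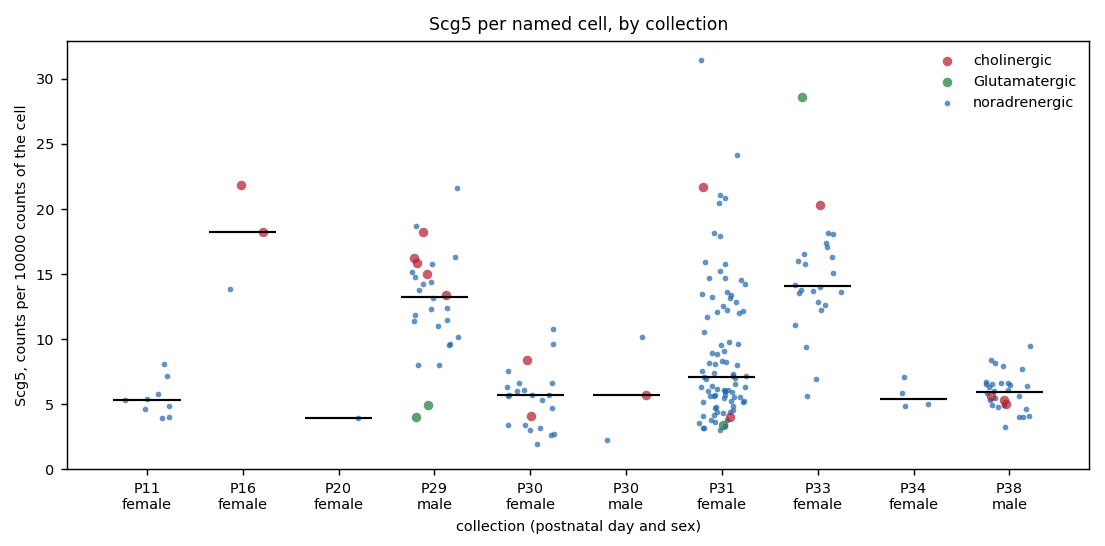
Scg5 level (y axis, counts per 10000 counts of the cell) in each named cell, by collection in order of age (x axis), coloured by class. Black lines are medians over the named cells of a collection. P16, P29 and P33 stand high, P31 runs from 3.02 to 31.5, and the remaining collections stay low.

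Sex was compared in Noradrenergic3 with 2 male and 5 female collections, whose ages differ. No member was called by edgeR or in any of the 10 alternatives, DESeq2 included, where 0.00986% of 10141 genes were higher and 0.0197% lower in males. At an unadjusted p under 0.05 edgeR gave 3 members. Chga was 7.69 ± 0.216 in males (SD, n = 2) and 4.93 ± 0.902 in females (n = 5), without overlap (7.54 to 7.85 and 3.48 to 5.65). Its log2 value was 0.63 (SE 0.19, edgeR unadjusted p = 0.00268, adjusted p = 1.00). The others were Pcsk2 (-0.46, edgeR unadjusted p = 0.0360) and Pcsk1n (0.41, edgeR unadjusted p = 0.0475).

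Rank correlations between members from cell to cell were low. Over the Noradrenergic3 cells, Spearman's rho of the 45 member pairs, as the median over the 5 collections with at least 10 cells, ran from -0.301 to 0.324 with a median of 0.007. Chga with Pcsk1n had the highest, 0.324, and was positive in 5 of 5 collections. Chgb with Scg2 had 0.319 and was positive in 4 of 5, and Chgb with Scg3 had -0.301 and was negative in 4 of 5. Several members had only a few counts per cell, which by itself lowers rho, so these values do not show that members vary independently. The cells share chips and depth, and Pcsk1n had a rho of -0.33 with the total count of the cell.

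The genes most like each member were taken by Pearson's r on log2(level + 1) over all named cells, among 9626 genes with a count in at least 20% of them, as a description. For Scg2 they were Slc18a2, the vesicle transporter of amines (0.67), Th (0.63) and Slc31a1 (0.61). For Chga they were Sctr (0.65), Gal (0.60) and Gda (0.52), and for Chgb Npy (0.59), Sctr (0.59) and Fst (0.57). For Pcsk2 they were the amine oxidases Maob (0.47) and Maoa (0.43) and S100a13 (0.42). For Pcsk1n they were Bsg (0.56), Itm2b (0.51) and Rabac1 (0.51), and for Pam Gria1 (0.50), Tmc3 (0.48) and Prnp (0.45). Cpe had Dpysl2 (0.44), Grina (0.43) and Ano6 (0.41), and Vgf had Pvrl3 (0.45), Kcna2 (0.41) and Ass1 (0.41). Scg5 had Gstp1 (0.43), Snurf (0.38) and H2-Ke2 (0.37), and Scg3 had Syt1 (0.35), Atp8a1 (0.33) and Pcsk2 (0.30). Within Noradrenergic3 alone, r of these pairs ran from 0.055 for Pam with Prnp to 0.63 for Pcsk1n with Rabac1. It was 0.34 for Scg2 with Slc18a2, 0.199 for Scg2 with Th, 0.45 for Chga with Sctr and 0.131 for Chgb with Npy, and at most 0.085 for Vgf with its 3 genes.

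Of 14 other processing enzymes 10 could be tested. In cholinergic cells 1 fell and 0 rose, with a list median of -0.17: Atp7a, the copper pump that supplies Pam, fell by 0.72 (SE 0.21, edgeR adjusted p = 0.0203). In Glutamatergic cells 1 fell and 1 rose: Atp7a fell by 2.20 (SE 0.48, edgeR adjusted p = 5.55e-04), with 10 counts in the 4 cells, and the protease Ctsl rose by 1.34 (SE 0.27, edgeR adjusted p = 1.32e-04). In Noradrenergic1 Atp7a fell by 1.03 (SE 0.30, edgeR adjusted p = 0.0414). Pcsk1, the convertase that Pcsk1n inhibits, was not called in any of the 9 comparisons. Its level was 1.25 ± 0.581 in cholinergic cells (SD, n = 7) and 0.673 ± 0.219 in noradrenergic cells (n = 10), and its log2 value was 0.46 (SE 0.29, edgeR adjusted p = 0.461).

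Of 18 genes of dense-core vesicle making and release 16 could be tested. In cholinergic cells 1 fell and 0 rose, with a list median of -0.21, and in Glutamatergic cells 1 fell and 0 rose, with a list median of -0.32. In both it was Cyb561, the electron carrier of the vesicle membrane, which fell by 1.21 in cholinergic cells (SE 0.20, edgeR adjusted p = 2.74e-07) and fell by 1.998 in Glutamatergic cells (SE 0.39, edgeR adjusted p = 4.15e-05). Rab27b, a small GTPase of vesicle docking, rose by 1.45 in Noradrenergic2 (SE 0.38, edgeR adjusted p = 0.0118) and by 1.25 in Noradrenergic3 (SE 0.35, edgeR adjusted p = 0.0241), each over the mean of the other 4. Its level was 0.711 ± 0.553 in Noradrenergic2 (SD, n = 7) and 0.455 ± 0.107 in Noradrenergic3 (n = 7), against 0.472 ± 0.397 in Noradrenergic5 (n = 6), 0.212 ± 0.136 in Noradrenergic4 (n = 5) and 1 count in all Noradrenergic1 cells. Atp6ap2 rose by 0.74 in Noradrenergic2 (SE 0.20, edgeR adjusted p = 0.0217) and Rph3a by 1.502 in Noradrenergic4 (SE 0.32, edgeR adjusted p = 6.23e-04).

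Of 17 peptide precursors, the substrates of these enzymes, 11 could be tested. In cholinergic cells 5 rose (Vip, Cartpt, Sst, Calca, Calcb) and 2 fell (Gal, Adm). In Glutamatergic cells 5 rose (Calca, Tac1, Cartpt, Calcb, Adcyap1) and 0 fell. Most of these had next to no counts in noradrenergic cells, so levels are given in place of fitted changes. Vip, the vasoactive intestinal peptide precursor and one of the cholinergic markers above, was 84.9 ± 36.1 in cholinergic cells (SD, n = 7) and 0.139 ± 0.187 in noradrenergic cells (n = 10). Sst, the somatostatin precursor, was 6.66 ± 6.12 in cholinergic and 0.0545 ± 0.0734 in noradrenergic cells. It was lower in Ach1 than in Ach2. With Nmu it rose in Noradrenergic2, where both were near the floor. Of the 39 Noradrenergic2 cells, 13 held Sst, with 29 counts, and 19 held Nmu, with 23 counts. Calca, the precursor of calcitonin gene-related peptide and one of the sensory markers above, was 112.6 ± 46.2 in Glutamatergic cells (n = 3), with 3 counts in all noradrenergic cells together. Gal, the galanin precursor, was 0.140 ± 0.254 in cholinergic cells and 18.7 ± 11.4 in noradrenergic cells, and fell by 5.49 (SE 0.67, edgeR adjusted p = 2.96e-07). Within the noradrenergic cells Gal was 34.5 ± 8.06 in Noradrenergic3, a rise of 2.60 (SE 0.33, edgeR adjusted p = 2.34e-06), and 1.72 ± 3.27 in Noradrenergic5, where it fell by 4.16 (SE 0.58, edgeR adjusted p = 1.45e-05). Adm, the adrenomedullin precursor, had 1 count in the 16 cholinergic cells and was 0.909 ± 0.513 in noradrenergic cells, and it rose in Noradrenergic3 by 1.44 (SE 0.21, edgeR adjusted p = 1.21e-08).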

How the data were processed

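RNA of single cells was counted after capture on microfluidic chips, and the deposited table holds whole-number counts per gene and cell. The build was mm10 per the submitters' processing notes. The aligner, counter, strand and any collapsing of molecules are not given in the sources used here. Members and lists were chosen with earlier results of these data known.

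Counts were summed by identity and collection into 44 libraries, since the labels name no animals. The filter asked for 20 counts over the libraries and for counts in 3 of them. The fit used edgeR 4.0.16 (R 4.3.3) with TMM scaling and robust quasi-likelihood, with terms for identity and collection and identities weighted equally. P-values are two-sided, and a call is an adjusted p below 0.05. The SE is the absolute log2 fold change over the square root of F. For sex, Noradrenergic3 was summed in collections with at least 3 of its cells.

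The collection block rests on a pairing check: over 7213 genes, deviations of Noradrenergic2 and Noradrenergic3 libraries of at least 5 cells correlated at 0.132 to 0.154 within a collection and at -0.163 to 0.103 between collections. Alternatives were RLE, no filter, DESeq2 1.42.0, no block, chip as block, libraries of at least 2 cells, each collection left out, and for levels cells thinned to 10000 counts. Named genes were the members, called list genes (at most 6 per list and comparison, by size of change) and the 3 genes with the highest r per member. The fit was also run on simulated counts with the same spread for all genes and no collection effect. These settings differ from the data, so that run is no evidence for the calls above. The list genes Cck and Ccdc186 were not analysed here. Promoters are from RefSeq and gene spans from GENCODE, both on GRCm38.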

Additional observations from a re-analysis of the deposited data

Results flagged for a closer look

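In 5 of 70 groups of 4 to 7 collections, 1 collection stood far from the others. Chance gives about 1 in 20 groups, which is not far below this share. That rate assumes normal values of equal spread, while the collections held unlike numbers of cells. Chgb in Noradrenergic4 was 5.89 in P11 female (1 cell), against 1.37 to 2.22 in the other collections. Chgb in Noradrenergic5 was 3.19 in P11 female (2 cells), against 0.978 to 1.72. Pcsk1n in Noradrenergic4 was 8.99 in P30 female (4 cells), against 1.89 to 3.44. Pam in Ach1 was 27.3 in P30 male (1 cell), against 1.47 to 9.25. Pam in Noradrenergic2 was 6.31 in P29 male (5 cells), against 2.14 to 3.24.

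Chga differed between the 2 cholinergic identities in the test of that difference itself, with a log2 fold change of -2.03 in Ach1 over Ach2. The call was lost without P38 male (-1.28), which held an Ach2 cell at 15.1, and with no block, with chip as block and in DESeq2. In the 85 Unclassified cells, which entered no comparison, the 10 members summed to a median of 36.5 per cell (21.6 to 71.1).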

How the results depend on the processing

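Of 19 calls of a member in a comparison, 5 held in all 16 alternatives (Scg2 and Chgb in cholinergic, Chga and Chgb in Noradrenergic3, Chgb in Noradrenergic5) and 14 were lost in at least 1. The cause was not tested. Counts of called members were 3 in cholinergic with libraries of at least 2 cells. In Glutamatergic they were 1 under RLE, 1 with no block, 0 with chip as replicate block and 1 with libraries of at least 2 cells, where 1 Glutamatergic library is assumed to vary like the other identities and the called member is Scg5, with Chga and Vgf lost. In Ach1 against Ach2 they were 0 with no block, with chip as block and in DESeq2. In Noradrenergic1 they were 1 under RLE, with no block, with chip and in DESeq2, and in Noradrenergic2 they were 1 with no block and in DESeq2. In Noradrenergic4 they were 3 under RLE, 2 with chip (Chgb, Pam) and 3 with libraries of at least 2 cells (Chgb, Scg2, Pam), Vgf being lost in both, and in Noradrenergic5 they were 1 with no block, with chip and in DESeq2 and 4 with libraries of at least 2 cells. Counts of all called genes were 279 in cholinergic, 184 in Glutamatergic and 242 in Noradrenergic1 with libraries of at least 2 cells, 5 with no block and 7 with chip in Ach1 against Ach2, 326 with chip in Noradrenergic3, 93 in DESeq2 in Noradrenergic5 and 8 with no filter for sex.

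Leaving out each collection gave 4 to 7 members and 348 to 567 genes in cholinergic, 0 to 2 and 91 to 360 in Glutamatergic, and 0 to 1 and 5 to 17 in Ach1 against Ach2. It gave 0 to 2 and 90 to 166 in Noradrenergic1, 1 to 2 and 114 to 205 in Noradrenergic2, 2 to 3 and 117 to 207 in Noradrenergic3, 0 to 3 and 87 to 152 in Noradrenergic4, 1 to 2 and 56 to 174 in Noradrenergic5, and 0 and 2 to 6 for sex. Signs changed for uncalled values only. Scg5 in cholinergic was -0.014 with chip as replicate block, -0.0227 in DESeq2, and -0.0443 to 0.108 with a collection left out. In Glutamatergic, Scg5 was 0.31 with no replicate block, and Scg2 was -0.31 to 0.56 with a collection left out. Thinned to 10000 counts, the share of named cells with a count was 82.1% for Chga (95.3% unthinned), 88.2% for Chgb (98.1%), 87.7% for Scg3 (98.6%), 20.3% for Vgf (45.5%), 90.6% for Pcsk1n (99.1%), 80.2% for Pcsk2 (94.8%), 88.7% for Cpe (99.5%) and 86.8% for Pam (98.6%). Depth limits Vgf most, and the 4 Glutamatergic and 16 cholinergic cells limit the precision of both classes.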
